A study of Homo sapiens with 4 samples.

Results

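All ATAC-seq peaks on human chromosome 13 were followed through 4 deposited peak lists, 8002 of the 250225 peaks that the lists held in all. Chromosome 13 was chosen by measured values, because its shared peaks had the highest median ratio of sgFLI1 over WT summit pileups among 23 chromosomes. Every value below that sets sgFLI1 against WT therefore describes the chromosome and tests nothing. The cells were HK1, an established line of nasopharyngeal carcinoma, a squamous cancer of the upper throat. Wild-type (WT) cells and FLI1-knockout cells made with a guide RNA (sgFLI1) were left untreated or were given interferon-γ (IFN-γ), and the treated groups are called WT-IFN-γ and sgFLI1-IFN-γ. Where 4 values stand together without names, both WT libraries come before both sgFLI1 libraries, untreated first. The labels do not say whether the sgFLI1 cells were 1 clone or which guide they carried. Each group has 1 list, which was treated as 1 library. The study's methods name a filter on reproducible peaks, and whether a list stands for 1 library or for pooled replicates, and was taken before or after that filter, is not given in the sources used here. The spread between replicates is unknown in either case, and groups were compared without a test. Intervals, at the 95% level, cover counting error within a library alone.

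ATAC-seq cuts and tags DNA that is free of nucleosomes, so a peak marks an accessible promoter, enhancer or insulator. Chromosome 13 is acrocentric: its short arm carries ribosomal DNA repeats, and its genes lie on the long arm, 13q, where gene-rich stretches alternate with long gene deserts. FLI1 is a transcription factor of the ETS family, and IFN-γ acts in part through the interferon regulatory factors (IRF), which bind purine-rich sites in the promoters and enhancers of responding genes.

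The following 201-base windows of the GRCh38 plus strand, centred on the summit of the peak with the most tags, show some of the regions on which the results turn. The first was the highest region in sgFLI1 against WT, ranked by whichever of the untreated and the IFN-γ ratio lay nearer to 0. An internal start of LMO7 and a site in the desert past KLF5 came next, as places with far fewer tags in the sgFLI1 lists. All were picked after their values were seen. The last 3 were listed in a subset of the libraries. Capitals mark letters of 6 searched motifs, and a run without capitals held none of them.
DHRS12 intron, chr13:51786097-51786297: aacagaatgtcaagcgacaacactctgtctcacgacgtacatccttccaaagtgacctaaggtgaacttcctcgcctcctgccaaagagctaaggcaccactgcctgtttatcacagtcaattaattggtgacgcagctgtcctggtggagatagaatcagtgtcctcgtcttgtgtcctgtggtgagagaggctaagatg
LMO7 internal start, chr13:75760332-75760532: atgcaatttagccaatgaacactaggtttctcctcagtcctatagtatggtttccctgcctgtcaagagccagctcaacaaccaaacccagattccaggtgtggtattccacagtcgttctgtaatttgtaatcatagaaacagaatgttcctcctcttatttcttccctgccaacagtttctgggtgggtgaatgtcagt
Intergenic, downstream of KLF5, chr13:73334526-73334726: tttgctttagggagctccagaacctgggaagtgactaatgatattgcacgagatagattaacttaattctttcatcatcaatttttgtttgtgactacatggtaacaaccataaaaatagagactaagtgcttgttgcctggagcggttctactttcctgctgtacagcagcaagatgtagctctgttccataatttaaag
Both sgFLI1 lists, intergenic, downstream of ANKRD10, chr13:110853369-110853569: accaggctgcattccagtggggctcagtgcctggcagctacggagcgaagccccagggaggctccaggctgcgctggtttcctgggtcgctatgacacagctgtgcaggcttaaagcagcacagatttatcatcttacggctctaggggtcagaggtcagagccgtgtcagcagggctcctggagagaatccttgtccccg
Both IFN-γ lists, ENOX1 intron, IRF letters in capitals, chr13:43664833-43665033: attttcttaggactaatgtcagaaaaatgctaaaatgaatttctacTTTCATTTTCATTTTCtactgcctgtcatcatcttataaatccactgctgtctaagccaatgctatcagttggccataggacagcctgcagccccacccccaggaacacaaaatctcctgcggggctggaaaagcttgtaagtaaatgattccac
WT-IFN-γ list only, DOCK9 intron, IRF letters in capitals, chr13:99075986-99076186: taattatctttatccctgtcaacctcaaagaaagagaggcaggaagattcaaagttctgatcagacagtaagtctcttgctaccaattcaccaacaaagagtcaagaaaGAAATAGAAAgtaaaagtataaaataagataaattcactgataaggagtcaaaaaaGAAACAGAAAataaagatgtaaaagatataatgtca

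The untreated sgFLI1 list held more chromosome 13 peaks than the WT list, and the order was turned after IFN-γ. The chromosome held 1767 peaks in WT and 2190 in sgFLI1 when untreated, and 2060 and 1985 with IFN-γ. They made up 2.96% of the WT list (2.83 to 3.10%, Wilson), 3.05% of WT-IFN-γ (2.93 to 3.19%), 3.47% of sgFLI1 (3.33 to 3.61%) and 3.31% of sgFLI1-IFN-γ (3.17 to 3.46%). Both sgFLI1 shares thus lay above the WT share of the same treatment state. Without IFN-γ the count was 23.9% higher in sgFLI1 than in WT, against 5.99% over all chromosomes. With IFN-γ it was 3.64% lower in sgFLI1, against 11.2% lower over all chromosomes. IFN-γ went with 293 more peaks in WT, a change of 16.6%, and with 205 fewer in sgFLI1, a change of −9.36%. Over all chromosomes the changes had the same directions, at 13.1% and −5.19%.

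Depth differed between the libraries and moved with genotype. The tag density per kb was 8.04 and 8.84 in WT without and with IFN-γ and 6.93 and 6.86 in sgFLI1. It was the lowest background recovered in a list over the length of its shortest peak, which was assumed to be the tag length. Summit pileups, the number of tags over a summit, had medians on chromosome 13 of 25, 24, 19 and 20 tags in the same order, and median peak widths were 679, 627, 534 and 564 bp. Peaks of the sgFLI1 lists were thus narrower and shallower at their medians. At a −log10 q of at least 10, untreated WT kept 993 peaks and sgFLI1 1015, and with IFN-γ the numbers were 1120 and 925. Promoter peaks, with a summit within 3 kb of a transcription start, made up 24.2% and 22.0% of the chromosome's peaks in WT without and with IFN-γ and 21.6% and 22.9% in sgFLI1, where the whole lists held 35.4 to 37.4%. Peaks on 13q therefore lay far from starts more often than elsewhere. As a check on the cell label, promoters of the squamous genes KRT5, KRT14 and TP63 had no peak in any list, while 2 of the 6 epithelial markers had one in WT and 3 in each other list. Summed over the 6, promoter tags were 123 and 155 in WT without and with IFN-γ and 92 and 68 in sgFLI1. Leukocyte markers (4 genes; PTPRC and CD3E without a peak) summed to 50, 58, 56 and 23 tags, and fibroblast and endothelial markers (4 genes) to 183, 194, 189 and 217 tags. Their part in the results was not tested.

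**Figure D1:**
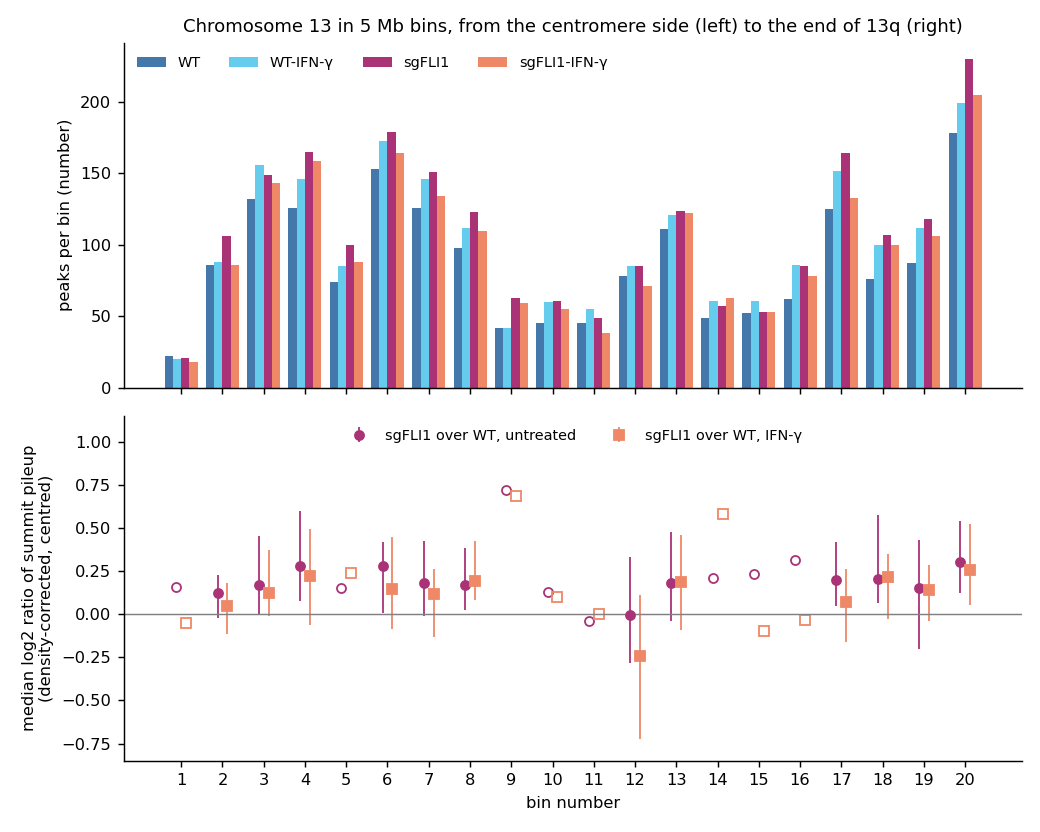
Upper panel: number of peaks per 5 Mb bin of chromosome 13 (y axis) in the 4 lists (bars). Lower panel: median log2 ratio of the summit pileup, sgFLI1 over WT, with interquartile range (bars on points); open symbols, without a range, have fewer than 20 shared peaks. The sgFLI1 bar is higher than the WT bar in 19 of 20 bins, and the lowest filled points are those of bin 12.

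More peaks were listed in sgFLI1 than in WT along most of the arm when untreated. In 5 Mb bins, sgFLI1 had more peaks in 19 of 20 bins and fewer in 1, whereas sgFLI1-IFN-γ had more than WT-IFN-γ in 6 and fewer in 13. IFN-γ went with more peaks in 18 bins in WT and with fewer in 18 bins in sgFLI1. Over 10 Mb bins, the count in sgFLI1 was 38.0% above that in WT from 100 to 110 Mb (225 and 163 peaks) and 8.91% above it from 80 to 90 Mb. The first bin, from 10 to 20 Mb, was the exception, with 22 peaks in WT and 21 in sgFLI1.

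Peaks of one list that overlapped no peak of the other were more frequent on chromosome 13 than genome-wide, above all those in sgFLI1. WT lacked a counterpart to 839 of the 2190 sgFLI1 peaks (38.3%, 36.3 to 40.4%), where the share was 25.3% over all chromosomes. Of the 1767 WT peaks, 420 (23.8%, 21.8 to 25.8%) were without one in sgFLI1, against 21.4%. In the treated pair, WT-IFN-γ lacked 611 of 1985 peaks of the other list (30.8%, 28.8 to 32.8%), against 19.8%, and sgFLI1-IFN-γ lacked 696 of 2060 (33.8%, 31.8 to 35.9%), against 29.0%. For peaks listed in sgFLI1 the share was the highest of 23 chromosomes in both treatment states. For WT peaks it ranked 7 untreated and 5 with IFN-γ.

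Unmatched peaks were weak, and at a −log10 q of at least 5 their shares were 17.5% for sgFLI1 and 11.9% for WT. No shares over all chromosomes are given at that limit, so whether chromosome 13 exceeds them there is not known. Their median pileup was 11 tags in sgFLI1 and 13 in WT, where shared peaks had 33 and 32. Within classes of equal pileup, 87.8% (84.6 to 90.5%) of sgFLI1 peaks of at most 10 tags were unmatched on chromosome 13 and 79.4% elsewhere, but 3.25% (2.09 to 5.03%) of those of 41 or more tags, against 2.86%. When the other chromosomes were weighted to the pileup classes of chromosome 13, their unmatched share was 33.9% for sgFLI1 peaks, beside the 38.3% on chromosome 13. For sgFLI1-IFN-γ peaks it was 26.9%, beside 30.8%. The same weighting gave 26.4% for WT peaks, beside 23.8%, and 35.0% for WT-IFN-γ peaks, beside 33.8%. The weighted share lay outside the counting interval of the chromosome 13 share for sgFLI1, sgFLI1-IFN-γ and WT peaks, and inside it for WT-IFN-γ peaks. Single classes did not all follow: of sgFLI1 peaks with 26 to 40 tags, 11.3% were unmatched on chromosome 13 and 11.7% elsewhere, and of WT peaks with at most 10 tags, 78.5% and 77.9%. Promoter peaks made up 11.6% of the unmatched and 27.8% of the shared peaks of sgFLI1.

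Between treatment states, 360 of 1767 WT peaks (20.4%) had no counterpart in WT-IFN-γ, where the share was 15.9% over all chromosomes, and 650 of 2060 WT-IFN-γ peaks (31.6%) had none in WT, against 25.2%. In sgFLI1 cells, 756 of 2190 untreated peaks (34.5%) had none after IFN-γ, against 22.2%, and 546 of 1985 sgFLI1-IFN-γ peaks (27.5%) had none before it, against 18.0%. All 4 of these shares ranked highest of 23 chromosomes. They were not weighted by pileup as those between genotypes were, and weak peaks are unmatched more often. Median pileups of the whole lists were 31 and 30 tags in WT without and with IFN-γ and 27 and 26 in sgFLI1. On chromosome 13 they were lower, at 25, 24, 19 and 20. The part of pileup in these ranks was not tested.

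Merged over the lists, the peaks formed 3447 regions on chromosome 13. All lists held 1131 of them (32.8%), below the 43.9% of all merged regions. A total of 143 (4.15%, 3.53 to 4.87%) were in both sgFLI1 lists and in no WT list, where 3.56% were genome-wide, and 108 (3.13%, 2.60 to 3.77%) were in both WT lists and in no sgFLI1 list, against 4.20%. Both IFN-γ lists and no untreated one held 63 (1.83%, against 1.74%), and both untreated lists and no IFN-γ list held 60 (1.74%, against 1.30%). Regions of a single list were the larger part of the rest. There were 523 in sgFLI1 (15.2%, against 8.66% genome-wide) and 377 in sgFLI1-IFN-γ (10.9%, against 6.13%). WT-IFN-γ had 420 (12.2%, against 11.6%) and WT 206 (5.98%, against 5.93%), near the genome-wide shares.

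The pileup itself was higher over chromosome 13 in the sgFLI1 libraries. The ratio was taken over peaks with 1 counterpart and more than 60 tags in both libraries together, each pileup divided by its library's tag density, and the median over all chromosomes was set to 0. The median log2 ratio of sgFLI1 over WT was 0.21 over 705 chromosome 13 peaks untreated (interquartile range −0.00 to 0.44), a factor of 1.16. It was 0.14 over 720 peaks with IFN-γ (−0.08 to 0.38), a factor of 1.11. Of these peaks 74.0% lay above 0 untreated and 68.2% with IFN-γ, where 49.4% and 49.5% did elsewhere. The next chromosome, 5, had medians of 0.16 and 0.12.

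**Figure D2:**
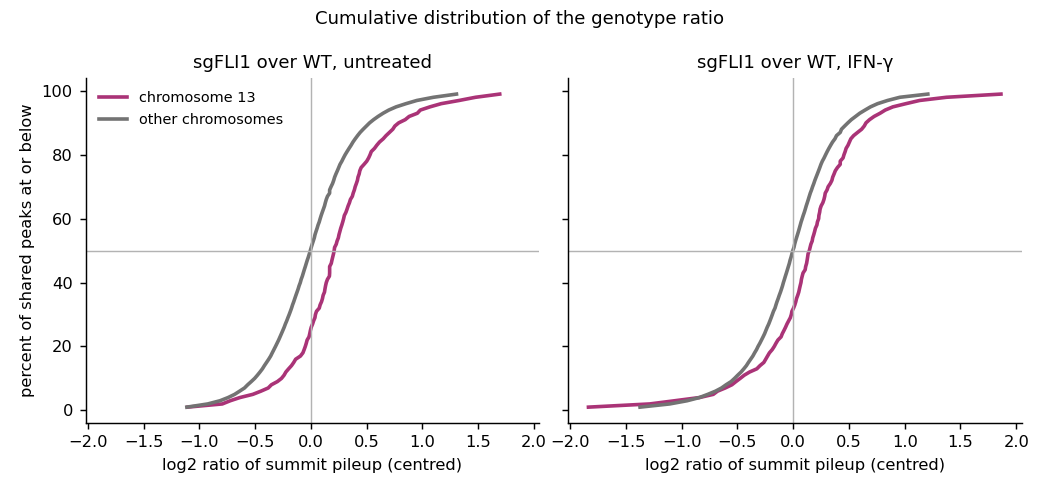
Percent of shared peaks (y axis) at or below each log2 ratio of the summit pileup, sgFLI1 over WT (x axis), for chromosome 13 and all other chromosomes, untreated (left) and with IFN-γ (right). The chromosome 13 curve crosses 50% at 0.21 and 0.14, to the right of the other chromosomes.

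Most peaks differed by little. By at least 1.5-fold, 121 peaks (17.2%, 14.6 to 20.1%) were higher in sgFLI1 untreated, where 8.63% of all shared peaks were, and 32 (4.54%) were lower, against 7.31%. With IFN-γ, 93 (12.9%, 10.7 to 15.6%) were higher, against 7.49%, and 53 (7.36%) were lower, against 8.24%. Peaks near promoters and far from them had similar medians, of 0.19 and 0.24 untreated and of 0.13 and 0.15 with IFN-γ. The median also varied little with pileup, at 0.21 for 61 to 90 tags, 0.19 for 91 to 150 and 0.22 above that, untreated. It was 0.14 in the lowest of 3 classes of G and C content, 0.29 in the middle and 0.20 in the highest. In the same classes of base composition the other chromosomes had medians of −0.04, 0.04 and −0.02. With IFN-γ the chromosome 13 median was 0.02 in the lowest class, near 0, and 0.21 and 0.15 in the others, where other chromosomes had −0.10, 0.02 and 0.01.

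The local background moved with the summits. MACS read it from the tags around each peak, and its median log2 ratio of sgFLI1 over WT was 0.20 untreated and 0.17 with IFN-γ, again the highest of 23 chromosomes. Fold enrichment over that background had medians of 0.02 and −0.02. With the background subtracted from each pileup the medians of the summit ratio were 0.20 and 0.14, beside 0.21 and 0.14 without the subtraction. More copies of the DNA and more accessible copies cannot be told apart from pileups.

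IFN-γ over untreated gave medians near 0, of 0.03 over 743 peaks in WT and −0.03 over 710 peaks in sgFLI1. Without centring they were −0.034 and −0.19, so that the direction in WT rests on the centring. In WT, 58 peaks (7.81%) were at least 1.5-fold higher after IFN-γ, where 6.02% were genome-wide, and 24 (3.23%) lower, against 2.51%. In sgFLI1, 9 (1.27%) were higher, against 1.67%, and 7 (0.986%) lower, against 1.00%. The number of chromosome 13 peaks past 1.5-fold was thus smaller in sgFLI1 than in WT, as it was over all chromosomes.

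Along the arm the genotype ratio was not even. All 9 of the 10 Mb bins with at least 20 shared peaks had a median above 0 in both treatment states, from 0.00 to 0.30 untreated and from 0.01 to 0.26 with IFN-γ. Medians of the bins in the 2 states had a Pearson's r of 0.71 and a Spearman's rho of 0.66 over 9 bins, which share the chromosome, the cell stocks and the gene density of each bin. The highest was the last bin, from 110 Mb to the end of the arm, with 0.30 over 110 peaks and 0.26 over 113. Lowest was the bin from 60 to 70 Mb, a gene desert around PCDH9, with 0.00 and 0.01 over 21 peaks each. Without the last bin the chromosome's medians were 0.19 and 0.13.

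In 5 Mb bins, 11 of the 12 with at least 20 shared peaks were above 0 in each state. The exception was bin 12, from 70 to 75 Mb, with −0.00 over 21 peaks untreated and −0.24 over 24 peaks with IFN-γ. It holds KLF5 and KLF12, zinc-finger transcription factors, and DACH1, and 8 coding genes start in it. Its local background had medians of 0.02 and −0.10, below the chromosome's 0.20 and 0.17.

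Between KLF5 and KLF12 the sgFLI1 lists held fewer and weaker peaks than the WT lists. The ratios of both states and the untreated count ran against the direction of the chromosome, whereas with IFN-γ the whole chromosome also had fewer peaks in sgFLI1. The stretch was singled out after its values were seen. KLF5 drives growth and identity of squamous and other epithelia, and in such cells the desert beside it is known for enhancers. From chr13:73077542-73686088, a span of 609 kb, the lists held 41 merged regions. Untreated WT listed 36 peaks there and sgFLI1 26, and the treated lists had 33 and 23. No region was in both sgFLI1 lists alone, none in sgFLI1 alone and 1 in sgFLI1-IFN-γ alone, whereas 6 were in both WT lists alone, 4 in WT alone and 3 in WT-IFN-γ alone. Over the chromosome, 4.15% of regions were in both sgFLI1 lists alone and 3.13% in both WT lists alone. Regions in 1 list alone made up 15.2% for sgFLI1, 10.9% for sgFLI1-IFN-γ, 5.98% for WT and 12.2% for WT-IFN-γ. Summed summit tags, divided by tag density, were 195 and 191 in WT without and with IFN-γ and 120 and 109 in sgFLI1. Both sgFLI1 sums lay below both WT sums. The sums cover listed peaks alone, so a region missing from a list adds no tags and the lower number of sgFLI1 peaks enters them. Of regions with 1 peak in each list of a pair and more than 60 tags, 9 of 11 were below 0 untreated and 13 of 15 with IFN-γ, with medians of −0.28 and −0.56, where 74.0% and 68.2% of the chromosome's shared peaks lay above 0.

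**Figure D3:**
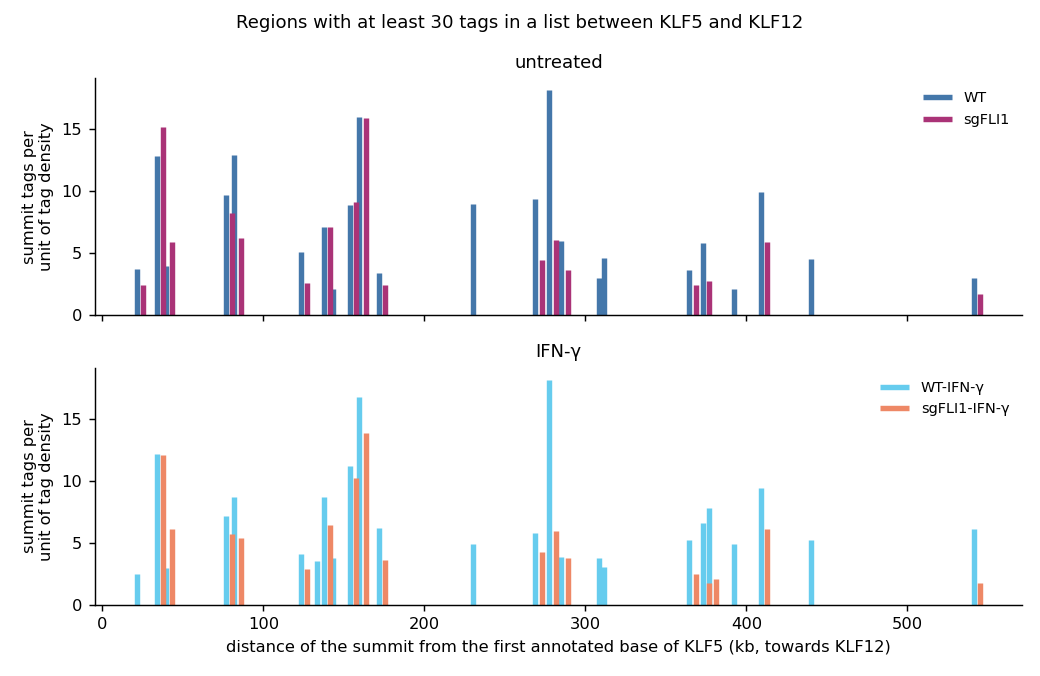
Summit tags divided by tag density (y axis) of regions between KLF5 and KLF12 with at least 30 tags in some list, against distance from the first annotated base of KLF5 in kb (x axis), untreated (upper) and with IFN-γ (lower). A line is missing where a list has no peak. The tallest WT line reaches 18.2 units untreated, where sgFLI1 has 6.06.

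The deepest region of that stretch in the WT lists, chr13:73334257-73337558, had 146 and 160 tags in WT without and with IFN-γ and 42 and 41 in sgFLI1. Its log2 ratio was −1.63 (−2.16 to −1.13, Clopper-Pearson) untreated and −1.54 (−2.07 to −1.04) with IFN-γ. A neighbour at chr13:73286900-73288450 had 72 tags in untreated and 43 in treated WT and was listed in neither sgFLI1 library. The region at chr13:73090005-73091315, closer to KLF5, had 103, 107, 105 and 83 tags and ratios of 0.20 (−0.21 to 0.60) and 0.06 (−0.38 to 0.48). The promoter of KLF5 itself had 158 and 197 tags in WT without and with IFN-γ and 190 and 139 in sgFLI1, with ratios of 0.43 (0.12 to 0.75) and −0.08 (−0.41 to 0.24). The desert and the promoter thus differed in direction when untreated.

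Regions that could be followed in every list showed which places held their difference in both treatment states. A total of 629 had exactly 1 peak in each list and enough tags. Of these 367 (58.3%) were above 0 in both states, where 32.9% were over all chromosomes, and 84 (13.4%) were below 0 in both, against 31.7%. At least 1.5-fold in both states, 47 of 629 were higher, where 3.63% were over all chromosomes, and 13 were lower, against 2.56%. The ratios of the 2 states had a Pearson's r of 0.67 and a Spearman's rho of 0.46 over the 629 regions, which come from the same 4 libraries and are not independent.

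**Figure D4:**
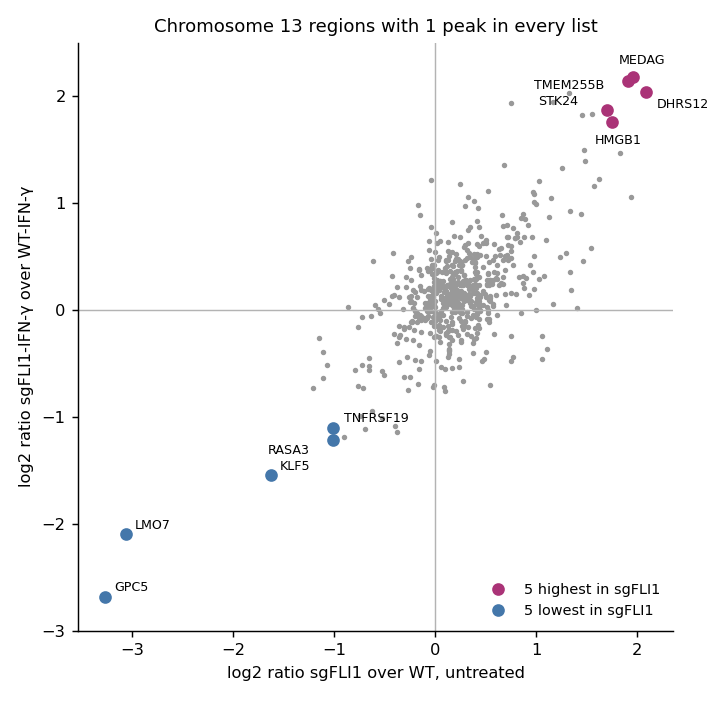
Log2 ratio of sgFLI1 over WT untreated (x axis) and with IFN-γ (y axis) for the 629 chromosome 13 regions with 1 peak in every list (grey). The 5 highest and 5 lowest regions are coloured and named by the nearest coding gene start; the lowest, near GPC5 and in LMO7, lie below −2 on both axes.

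The 5 highest regions, in order of the ratio nearer to 0, all lay away from promoters. The first, in an intron of DHRS12, which codes for a dehydrogenase, had 18 and 16 tags in WT without and with IFN-γ and 68 and 49 in sgFLI1. Its ratio was 2.09 (1.32 to 2.92) untreated and 2.04 (1.20 to 2.95) with IFN-γ. An intergenic region upstream of MEDAG, a gene named for its part in the making of fat cells, had 24, 23, 83 and 78 tags. Next, in an intron of TMEM255B, were 27, 28, 90 and 92 tags. Introns of HMGB1, a chromatin protein, and of STK24, a kinase, held the others, with 28, 27, 84 and 68 tags and with 26, 22, 75 and 60 tags. The 5 were picked for high ratios in both states, so that agreement follows from the choice. Both sgFLI1 pileups were above both WT pileups in each, with ratios from 1.697 to 2.18.

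Of the 5 lowest, 2 were at starts. The lowest, far upstream of the nearest start of GPC5, a glypican of the cell surface, had 108 and 86 tags in WT without and with IFN-γ and 10 and 10 in sgFLI1. Its ratio was −3.26 (−4.37 to −2.33) untreated and −2.68 (−3.79 to −1.73) with IFN-γ. An internal start of LMO7 and the KLF5 desert region followed, then an intron of RASA3, a Ras regulator, with 95, 112, 42 and 36 tags. The last was a promoter of TNFRSF19, a receptor of the TNF family, with 70, 66, 31 and 23 tags and ratios of −1.01 (−1.67 to −0.38) and −1.10 (−1.85 to −0.39). Both sgFLI1 pileups were below both WT pileups in all 5, which were picked for low ratios in both states.

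LMO7, which codes for a LIM-domain protein of cell junctions and the nuclear envelope, had 5 regions at annotated starts, and they did not move together. At the most upstream start with a peak the lists had 71 and 73 tags in WT without and with IFN-γ and 92 and 66 in sgFLI1, with ratios of 0.54 (0.08 to 1.01) and 0.28 (−0.23 to 0.78). At an internal start, chr13:75760105-75761427, they had 75, 86, 8 and 15 tags, and the ratios were −3.06 (−4.32 to −2.01) and −2.10 (−2.996 to −1.296). A further start, chr13:75787455-75789556, had 42, 67 and 13 tags and no peak in sgFLI1-IFN-γ, with an untreated ratio of −1.52 (−2.55 to −0.60). The remaining pair had 11 tags or fewer wherever it was listed. LMO7 with its flank held 17 peaks in each WT list, and in sgFLI1 13 untreated and 11 treated.

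The 5 most significant regions listed in both sgFLI1 libraries and no WT library, ranked by the smaller −log10 q, were mostly outside promoters. Downstream of ANKRD10, chr13:110853040-110853913 had 55 tags untreated and 53 with IFN-γ. In an intron of GTF2F2, a subunit of the general transcription factor TFIIF, 40 and 43 tags were listed, and far upstream of DACH1 48 and 40. At the start of MEDAG 57 and 44 tags were listed, so that MEDAG had a start listed in the sgFLI1 libraries alone besides the upstream region above. The last of the 5, upstream of UBL3, had 35 and 29 tags.

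Among regions in both WT lists alone, the most significant in the same ranking was in the KLF5 desert, as described. Another of the desert had 36 tags untreated and 46 with IFN-γ. A region downstream of MYO16 had 39 and 78 tags, an intron of PCDH9 25 and 41, and INTS6-AS1 28 and 24.

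The letters of known binding motifs were then counted in these classes. On both strands of the 201-base window, TGACTCA (AP-1), CCGGAAGT (ETS), ACATTCC (TEAD), TGTGGTT (RUNX), GAAANNGAAA (IRF) and the CTCF consensus were searched. None of these strings holds another. RUNX letters were in 18 of the 143 regions of both sgFLI1 lists alone (12.6%, 8.11 to 19.0%) and in 5 of the 108 of both WT lists alone (4.63%, 1.99 to 10.4%), where 5.83% of all chromosome 13 regions and 5.34% of regions on all chromosomes held them. The intervals of both classes overlap. Genome-wide the same 2 classes had 12% and 4.70%. RUNX factors are DNA-binding partners of many lineage regulators. AP-1 letters were in 25.2% of the sgFLI1 class and 22.2% of the WT class, beside 18% of all chromosome 13 regions. Genome-wide these classes had 26.9% and 18.5%, beside 18.2% of all regions. ETS letters were in 19 of 3447 regions (0.551%), of which 15 were in all lists, and in none of either class, which allows a share of up to 2.10% and 2.78% at 3 counts of the total. Over all chromosomes 0.988% of regions held them, and 0.241% and 0.332% of the same 2 classes, both below those limits. The counts of 0 thus do not set chromosome 13 apart.

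More regions with IRF letters were listed after IFN-γ in WT than in sgFLI1. Regions listed after and not before IFN-γ are called gained, and the reverse lost, and these counts were chosen after their values were seen. Of 3447 regions, 185 (5.37%) held the letters, beside 4.57% on all chromosomes. A region counts here if any list held it, and 83 of the 185 were in the WT-IFN-γ list alone. Such regions enter the total only through that list, which raises the WT share gained and lowers the sgFLI1 share. The intervals below take the 185 as fixed, and the genome-wide shares are built the same way. In WT, 113 of the 185 (61.1%, 53.9 to 67.8%) were listed after IFN-γ and not before it, where 53.0% of such regions were genome-wide, and 4 (2.16%) were lost, against 5.07%. In sgFLI1, 34 (18.4%, 13.5 to 24.6%) were gained, against 11.8%, and 19 (10.3%, 6.67 to 15.5%) were lost, against 8.31%. Regions without the letters had 534 gained and 350 lost in WT and 507 gained and 727 lost in sgFLI1. Over all chromosomes, regions without the letters had 14583 gained and 9153 lost in WT and 10011 gained and 13452 lost in sgFLI1. The depth of WT-IFN-γ was the highest of the lists, and its part was not tested. With gained peaks limited to those of at least 2.5 tags per unit of tag density, 38 remained in WT and 3 in sgFLI1.

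**Figure D5:**
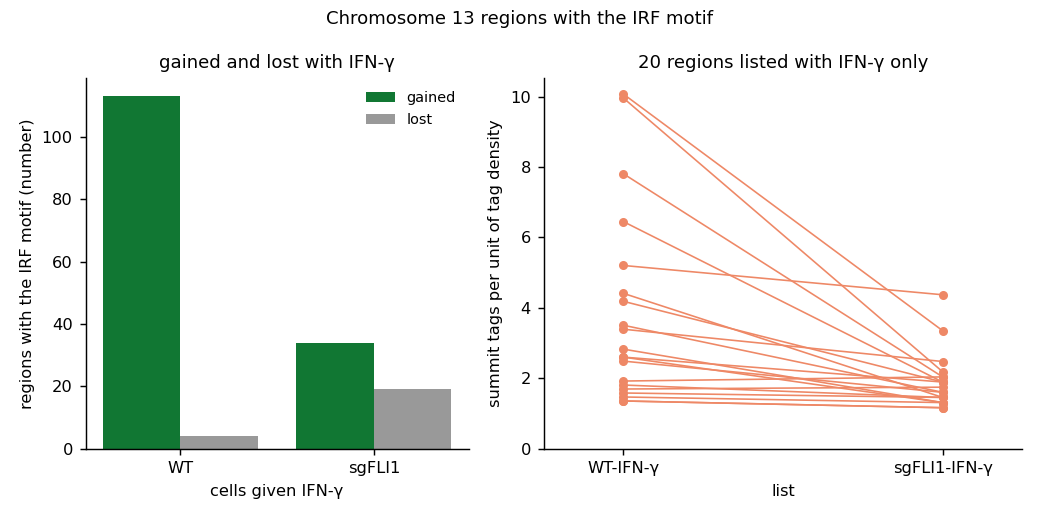
Left: number of chromosome 13 regions with the IRF letters gained or lost with IFN-γ in WT and sgFLI1 (bars). Right: summit tags divided by tag density (y axis) of the 20 such regions listed in both IFN-γ libraries and in neither untreated one, with a line per region. WT gained 113 and sgFLI1 34, and the lines fall steeply for the deepest regions.

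Of the 63 regions in both IFN-γ lists alone, 20 (31.7%, 21.6 to 44%) held IRF letters, beside 15% of that class genome-wide and 1.67% of the 60 regions in both untreated lists alone. These 20 had 12 to 89 tags in WT-IFN-γ, with a median of 24, and 8 to 30 in sgFLI1-IFN-γ, with a median of 11.5. Their ratio of sgFLI1-IFN-γ over WT-IFN-γ, here without the limit of 60 tags, was below 0 in 18 of 20, with a median of −0.49. The 43 without the letters had a median of 0.06. No shares below 0 over all chromosomes are given for these sets. Several intervals of the 20 included 0, as for a region with 12 and 8 tags and a ratio of −0.16 (−1.66 to 1.25). An intron of ENOX1 had 88 tags in WT-IFN-γ and 15 in sgFLI1-IFN-γ, a ratio of −2.13 (−3.03 to −1.33), and a region downstream of KCTD12 had 89 and 23, a ratio of −1.53 (−2.26 to −0.86). One in the KLF5 desert had 69 and 14. The most significant of the class by its smaller −log10 q, in the lncRNA PLUT, held no motif and had 41 and 37 tags.

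A further 93 regions with IRF letters were gained in WT and not in sgFLI1, and 33 of them had 20 tags or more in WT-IFN-γ. No share over all chromosomes is given for these counts. An intron of DOCK9, an activator of the GTPase CDC42, had 57 tags in WT-IFN-γ and was in no other list, and one of N4BP2L2 had 45. In sgFLI1, 14 regions were gained that were not gained in WT, and 3 of these were already listed in untreated WT. Over the 61 regions with the letters that were listed in both IFN-γ libraries, the median ratio was −0.19, with 40 below 0. It was 0.18 over the 1298 regions without the letters. Neither set was limited by its tags. Among regions listed in both IFN-γ libraries, those with IRF letters thus had a lower median ratio than those without. Neither the untreated ratio of these sets nor their values over all chromosomes are given, so whether chromosome 13 differs here is not known.

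The genes of 13q were followed through promoter regions, with a summit within 1 kb of a start, for 53 genes in 5 lists. A promoter region was found for 46, and 41 had ratios in both states, without a limit on tags. A gene with more than 1 region was counted by the region with the most tags in any list. Of those 41, 29 were above 0 in both, 3 below 0 in both and 9 mixed, where 58.3% of the chromosome's 629 followed regions and 32.9% of those on all chromosomes were above 0 in both. The promoters had medians of 0.19 untreated and 0.13 with IFN-γ, beside 0.21 and 0.14 over the chromosome's shared peaks. Counting intervals lay above 0 in both states for 2 genes and below 0 in both for 1, so most single promoters were not resolved at this depth.

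Cell cycle and growth genes had 7 of 11 above 0 in both states, near the chromosome's 58.3%, and none below 0 in both. The promoter of RB1, the retinoblastoma tumour suppressor, had 142 and 158 tags in WT without and with IFN-γ and 122 and 127 in sgFLI1, with ratios of −0.05 (−0.41 to 0.31) and 0.11 (−0.24 to 0.45). CUL4A, a ubiquitin ligase scaffold, had 154, 148, 148 and 152 tags and ratios of 0.11 (−0.22 to 0.45) and 0.46 (0.12 to 0.80), at a start that it shares with PCID2. The host gene of the miR-17 cluster, MIR17HG, had 113, 141, 125 and 104 tags. CCNA1 had no promoter region.

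Epithelial and matrix genes had 7 of 9 above 0 in both. LMO7 was counted by its most upstream start, whereas the internal and the further start given above had ratios below 0. KLF12 had 121, 129, 143 and 104 tags and ratios of 0.41 (0.05 to 0.77) and 0.11 (−0.28 to 0.49). The basement membrane collagen gene COL4A2 had 41, 44, 50 and 53 tags, with 0.45 (−0.17 to 1.09) and 0.69 (0.09 to 1.30). GJB2, which codes for a gap junction protein of epithelia, had 28, 21, 37 and 22, and its neighbour GJB6 had 8 tags in sgFLI1 and no peak elsewhere. PCDH9, a protocadherin gene, was the member counted as below 0 in both, with 60, 73, 41 and 44 tags and intervals that include 0.

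Interferon and immune genes had promoter regions for 8 of 11, and 5 had both ratios, 2 above 0 in both and 1 below, the TNFRSF19 promoter given above. TNFSF13B, which codes for the B-cell factor BAFF, had 13 tags in untreated WT and 28 after IFN-γ, and in sgFLI1 9 tags before it and no peak after it. The WT ratio of IFN-γ over untreated was 1.03. PHF11 had 114, 145, 100 and 118 tags, with IFN-γ ratios of 0.27 in WT and 0.41 in sgFLI1. The interferon-induced gene EPSTI1, TNFSF11 and GPR183 had no promoter region, though 3 to 5 peaks lay within EPSTI1 and its flank.

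Among transcription factors 3 of 4 were above 0 in both. The ETS gene ELF1 had 210, 214, 226 and 190 tags, with 0.27 (−0.00 to 0.55) and 0.25 (−0.04 to 0.54), and ZIC2 had 129, 141, 109 and 104. SOX21, SOX1 and POU4F1 had no promoter region, and CDX2 had 9 tags in sgFLI1-IFN-γ alone.

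Housekeeping genes had 10 of 12 above 0 in both and none below. IPO5, a nuclear import receptor gene, had 122 and 123 tags in WT without and with IFN-γ and 151 and 121 in sgFLI1, with ratios of 0.48 (0.12 to 0.83) and 0.40 (0.02 to 0.77). PCCA, which codes for a subunit of propionyl-CoA carboxylase, had 140, 123, 162 and 127, with 0.38 (0.04 to 0.72) and 0.47 (0.10 to 0.84). A further start of PCCA had 47, 43, 31 and 40 tags, with −0.43 (−1.14 to 0.25) and 0.32 (−0.34 to 0.97). ESD had 110, 133, 143 and 109, with 0.55 (0.18 to 0.92) and 0.13 (−0.24 to 0.51). A pair of the 12 genes shared 1 region and counts with the same values. IPO5 and PCCA were the genes whose counted region had intervals above 0 in both states.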

How the data were processed

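ATAC-seq libraries of HK1 cells were deposited as 1 narrowPeak list for each of 4 groups. Per the labels and the study's methods, reads were trimmed, aligned to GRCh38 with Bowtie2 2.3.4.1, freed of duplicates and passed to MACS2 2.1.2. The lists were used as deposited, with the authors' score, fold (a ratio of pileup to background), −log10 p, −log10 q and summit offset per peak. Whether Tn5 offsets were applied is not given in the sources used here. Summit pileups and backgrounds were recovered as whole tags from fold and −log10 p, for 100% of peaks within 0.01 in −log10 p, and tested on simulated data. Tag density, the lowest recovered background of a list over the tag length, served as depth. The tag length was assumed to be that of the shortest peak in the list. Counterparts overlapped by at least 1 bp. Ratios over chromosomes, bins, the KLF5 stretch and the regions followed in every list used peaks with 1 counterpart and more than 60 tags. Those of other single regions, gene promoters and IRF classes had no limit on tags. All were centred on the median of all chromosomes. Starts came from GENCODE 44. Named genes were a list of 53; named regions were the 5 highest and 5 lowest in both pairs and the 5 or 3 most significant of each class, besides those said to be singled out later, which include the IRF, LMO7 and KLF5 regions. The chromosome, the lists and the tests were chosen with earlier results of these data known. Wilson intervals were used for shares and Clopper-Pearson for ratios, and tags are reads without molecular identifiers. Shares at 0 were given a limit of 3 counts of the total. The study's methods name a step that kept reproducible peaks; whether a list holds 1 library or pooled replicates is not given in the sources used here. Each list was treated as 1 library, and no test was run. Python 3.11.15, scipy 1.17.1 and samtools 1.23.1 were used.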

Additional observations from a re-analysis of the deposited data

Results flagged for a closer look

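With IFN-γ, WT and sgFLI1 moved in opposite directions on chromosome 13 in several measures, which is why they are listed. With 1 list per group the differences were not tested. The number of peaks changed by 293 in WT and by −205 in sgFLI1, or by 16.6% and −9.36%. Over all chromosomes it changed in the same directions, by 13.1% and −5.19%. The covered length changed by 102.7 kb in WT and by −94.38 kb in sgFLI1. The promoter share of chromosome 13 peaks changed by −2.126 percentage points after IFN-γ in WT, and by 1.273 in sgFLI1. The share over all chromosomes also moved in opposite directions, from 37.4% to 35.4% in WT and from 36.6% to 37.3% in sgFLI1. The median log2 ratio of IFN-γ over untreated was 0.02788 in WT and −0.03326 in sgFLI1. Without centring on all chromosomes both were below 0, at −0.034 and −0.19. In 16 of the 20 bins of 5 Mb, WT gained peaks and sgFLI1 lost them. Depth moved the same way, by a factor of 1.10 in WT and of 0.990 in sgFLI1, and its part in these differences was not tested.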

How the results depend on the processing

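Of 60 recomputed values for 22 results, 28 stayed within their counting interval or, for counts, within 1.5 times. No replicate could be left out, since each group had 1 list. No paired analysis was possible because each group had 1 list and the labels carry no replicate number. With −log10 q of at least 10, untreated WT had 993 and sgFLI1 1015 chromosome 13 peaks, the treated lists 1120 and 925, and at least 5 left 1456 in sgFLI1. Unmatched shares between genotypes, in the order WT, sgFLI1, WT-IFN-γ, sgFLI1-IFN-γ, were 11.9%, 17.5%, 19.95% and 11.5% at a −log10 q of at least 5, then 5.94%, 7.19%, 11.3% and 3.35% at 10, and 29.3%, 42.9%, 38.5% and 36.1% with summits within 250 bases. Between treatments they were at 5 7.64% for untreated and 17.2% for treated WT, and 12.3% and 7.32% for sgFLI1, which an overlap at least as long as the rest of either peak put at 36.6% and 29.7%. No shares over all chromosomes are given under these alternatives. With more than 30 tags the untreated genotype median was 0.17. Without centring it was 0.25, that with IFN-γ 0.088, that of IFN-γ in sgFLI1 −0.19, and that of IFN-γ in WT reversed to −0.034, by the constant that centring subtracts. Under 2 alternatives chosen after seeing the data, gained IRF regions numbered 69 in WT and 10 in sgFLI1 at a −log10 q of at least 5, and 38 and 3 at 2.5 tags per unit of tag density or more. The cause of the other moves was not tested beyond the smaller number of peaks that stricter limits leave. Depth limits the single regions, since the interval of the DHRS12 ratio, at 18 and 68 tags, ran from 1.32 to 2.92.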
